A study of Mus musculus with 8 samples.

Results

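Claudins are the membrane proteins that form the strands of tight junctions, the belts that join neighbouring epithelial or endothelial cells near their apical border. Each claudin crosses the membrane several times, and its outer loops meet those of claudins on the next cell. Some of them seal the space between cells, others form channels for selected ions through it, and the set of claudins a cell makes sets how leaky its layer is. In the uterus they join the cells of the luminal and glandular epithelium and of the vessels. The 10 claudins described here (Cldn1, Cldn2, Cldn3, Cldn4, Cldn5, Cldn6, Cldn7, Cldn8, Cldn10 and Cldn11) were taken by gene symbol, with every probe set that the platform annotation gives to a member alone. They are 10 of the 13119 genes with a symbol of their own, and 16 of the 28000 probe sets of the deposited table. The members were set by symbol alone, while a class of arrays used below was set by the measured signal of Apoa1, which is no member.

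At gestational day 18.0, RNA of the uterus was measured in 4 wild-type mice (C57BL/6) and in 4 Cox-1 KO mice, which lack cyclooxygenase-1, the product of Ptgs1 that starts prostaglandin synthesis, and which deliver their pups late. The labels give the Cox-1 KO mice as C57BL/6 x Sv129 (129P2 in the study's methods), so that the deletion and the strain background cannot be told apart, and an age of 6 to 16 weeks for all mice, a range that starts later in the study's methods. According to those methods, placenta, membranes and fetuses were taken out of each uterus and pieces of it were fixed for sections, and the RNA came from the frozen rest, whose cell types were not separated. The values are MAS5 signals of Affymetrix 430 2.0 arrays, scaled to a target of 1000 on each array. Array medians lay between 731 and 757, and the number of arrays limits the precision. Ptgs1 itself read 7048 to 10756 in wild-type samples and 76 to 136 in Cox-1 KO samples. The arrays also fell apart in another way that the labels do not give. Apoa1, a plasma apolipoprotein made by yolk sac, liver and intestine, had a signal of 50275 to 69038 on 4 arrays, wild-type replicate 4 and Cox-1 KO replicates 1, 3 and 4, and of 342 to 842 on the other 4. Arrays with an Apoa1 signal of 10000 or more are called Apoa1-high below. They are 1 wild-type array and 3 Cox-1 KO arrays, so the class is unevenly spread over the genotypes. In such bulk samples, fewer cells of a type and less RNA per cell cannot be told apart.

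Cldn2 and Cldn6 were the claudins whose signal varied most between arrays, and the 250 bases before their start sites are shown for that reason, from RefSeq (GRCm38.p6). Cldn2, which forms channels for small cations in leaky epithelia such as the kidney's proximal tubule, lies on chromosome X between Ripply1 and Morc4 in RefSeq's gene order, and its window is chrX:139800558-139800807 on the plus strand. Cldn6, a claudin of embryonic epithelia, lies on chromosome 17 beside Cldn9, and its window is chr17:23679115-23679364 on the plus strand. Capitals mark every match to the 6 motifs that were searched on both strands: TATAAA (the box that TBP binds), GGGCGG (the GC box, read as CCGCCC on the other strand), CAGGTG (the E-box that Snail and Zeb repressors bind), GTTAAT (a part of the HNF1 site), and AGATAA with its variant TGATAA (sites of GATA factors).
Cldn2: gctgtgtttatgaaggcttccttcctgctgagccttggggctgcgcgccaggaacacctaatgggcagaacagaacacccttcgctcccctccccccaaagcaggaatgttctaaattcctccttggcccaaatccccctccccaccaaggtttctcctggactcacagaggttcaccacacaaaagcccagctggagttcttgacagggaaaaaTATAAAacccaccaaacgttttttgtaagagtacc
Cldn6: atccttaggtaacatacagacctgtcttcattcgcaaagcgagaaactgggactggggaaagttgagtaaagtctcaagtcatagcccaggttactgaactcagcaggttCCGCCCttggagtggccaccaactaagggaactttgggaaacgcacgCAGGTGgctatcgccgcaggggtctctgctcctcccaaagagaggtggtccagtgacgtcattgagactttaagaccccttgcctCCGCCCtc
The Cldn2 window held TATAAA, 35 bases before the start, and no other of these motifs. The Cldn6 window held CCGCCC at 140 and at 8 bases before the start and CAGGTG at 93 bases before it, and no TATAAA. Among all 32851 RefSeq windows of this length, 12.4% held TATAAA, 32.7% GGGCGG and 17.2% CAGGTG on either strand. RefSeq gave 11 such windows for 9 of the 10 members, and there was no window for Cldn8. TATAAA stood in 1 of the 11, GGGCGG in 7 and CAGGTG in 3. The GTTAAT motif stood in 2 of them (6.43% of all windows), AGATAA in 1 (9.99%) and TGATAA in 0 (7.94%). Such matches are descriptions of sequence and not measured sites. Some members neighbour another claudin in RefSeq's order: Cldn3 and Cldn4 lie side by side on chromosome 5, Cldn1 beside Cldn16 and Cldn8 beside Cldn17 on chromosome 16.

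The comparison of genotypes asks which claudins differ between the wild-type uterus and the uterus of a mouse with delayed labor. No claudin differed past the adjusted threshold. Of the 16 probe sets, 15 reached a signal of 100 on 4 or more arrays and were tested, and 0 of the 15 had an adjusted p under 0.05 in limma, where 0.0113% of the 26444 probe sets tested did. Their adjusted p lay between 0.526 and 0.996. At an unadjusted p under 0.05 limma had 2 of the 15, 1 probe set of Cldn1 and 1 of Cldn2, both with the higher mean in the Cox-1 KO samples. That share compares with 8.81% of all probe sets in either direction and 3.69% with the higher mean in Cox-1 KO. The methods' t-test had 0 of the 15 at their thresholds, which 0.862% of all probe sets passed, and 0 after Benjamini-Hochberg adjustment. In 0 of the 15 were the 4 Cox-1 KO arrays all above or all below the 4 wild-type arrays, a separation that 4.41% of all probe sets showed. With 1 probe set a gene, the brightest, 8 of the 10 claudins had a log2 fold change (Cox-1 KO minus wild-type) above 0 and 2 below, with a median of 0.11. Over the brightest probe sets of all genes the median was -0.01.

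**Figure D1:**
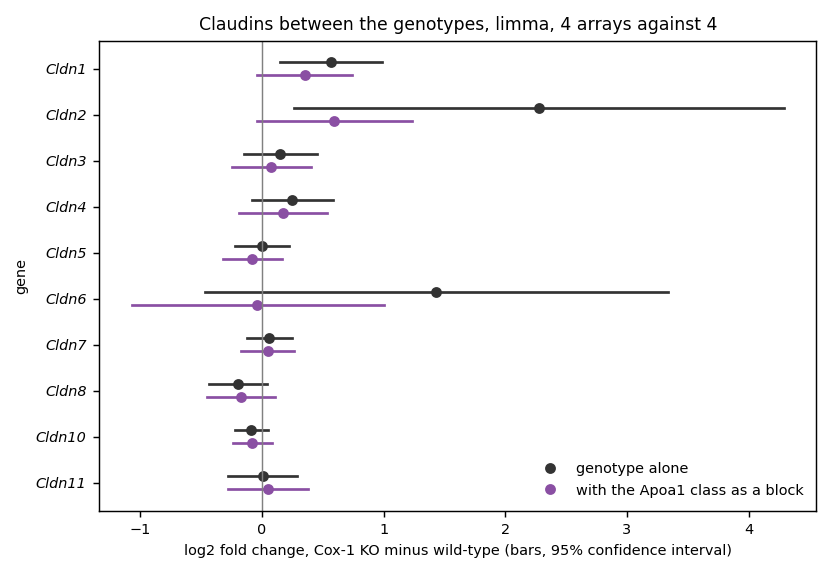
Log2 fold change of the brightest probe set of each claudin (x axis, Cox-1 KO minus wild-type) by gene (y axis), with 95% confidence intervals from limma over 4 arrays of each genotype, in black for genotype alone and in purple with the Apoa1 class as a block. The intervals of Cldn1 and Cldn2 lie above 0 with genotype alone (0.15 to 0.99 and 0.26 to 4.29), and all 10 intervals hold 0 with the block.

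Of the channel-forming members, Cldn2 varied most and Cldn10 least. The Cldn2 probe set 1417231_at had signals of 268, 294, 278 and 3354 in wild-type replicates 1 to 4 and of 6796, 489, 5137 and 2373 in Cox-1 KO replicates 1 to 4. The groups overlapped, since wild-type replicate 4 lay with the 3 high Cox-1 KO samples and Cox-1 KO replicate 2 lay near the 3 low wild-type samples. The wild-type mean was 1049 ± 1537 and the Cox-1 KO mean 3699 ± 2812 (SD, n = 4), a ratio of 3.53, and its log2 fold change was 2.28 (SE 0.916, limma adjusted p = 0.541). An exact permutation test over the 70 assignments of the arrays gave a two-sided p of 0.0857, where 0.0286 is the smallest it can give. The other Cldn2 probe set, 1417232_at, had signals of 83, 158, 122 and 995 in wild-type and of 1377, 143, 1129 and 701 in Cox-1 KO. The same 4 arrays were high, and its log2 fold change was 1.65 (SE 0.811, limma adjusted p = 0.583).

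Cldn10, whose splice variants form channels for cations or for anions, had signals (1426147_s_at) of 14102, 14722, 14282 and 15023 in wild-type and of 12273, 14483, 14640 and 13375 in Cox-1 KO. The wild-type samples lay close together, with replicates 2 and 4 above every Cox-1 KO sample, and Cox-1 KO replicates 1 and 4 lay below every wild-type sample. The wild-type mean was 14532 ± 418 and the Cox-1 KO mean 13693 ± 1101 (SD, n = 4), with a log2 fold change of -0.09 (SE 0.0617, 95% interval -0.22 to 0.05, limma adjusted p = 0.695). RefSeq lists 2 start sites of Cldn10, and this probe set does not say from which of them its RNA came.

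Cldn6 was high and low on the same arrays as Cldn2, near the low end of the signal scale. Its probe set (1417845_at) read 21, 36, 69 and 322 in wild-type and 447, 41, 226 and 215 in Cox-1 KO. The 4 values above 100 were those of the Apoa1-high arrays, and the probe set was tested only because of them. The wild-type mean was 112 ± 141 and the Cox-1 KO mean 232 ± 166 (SD, n = 4), a ratio of 2.07, and the log2 fold change was 1.43 (SE 0.865, 95% interval -0.47 to 3.34, limma adjusted p = 0.649).

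Among the claudins known mainly as seals, Cldn1, which the barrier of the epidermis needs, had the widest difference. Its brightest probe set (1437932_a_at) had signals of 919, 1049, 1592 and 1529 in wild-type and of 2185, 1437, 1686 and 2146 in Cox-1 KO. Cox-1 KO replicates 1, 3 and 4 were above every wild-type sample, and Cox-1 KO replicate 2 was below wild-type replicates 3 and 4. The wild-type mean was 1272 ± 338 and the Cox-1 KO mean 1864 ± 364 (SD, n = 4), a ratio of 1.46, with a log2 fold change of 0.57 (SE 0.192, limma adjusted p = 0.526) and a two-sided exact permutation p of 0.114. The other tested probe set of Cldn1, 1450014_at, ran from 612 to 874 in wild-type and from 666 to 1181 in Cox-1 KO, with a log2 fold change of 0.26 (SE 0.173, limma adjusted p = 0.674). The remaining one, 1438851_x_at, stayed between 11 and 90 on the 8 arrays and was not tested. The 2 tested probe sets of Cldn1 had the same sign and differed in size.

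Markers of stratified epithelium went with Cldn1 on some arrays but not on all. Of the 13 genes on that list 9 were tested, and all 9 had a log2 fold change above 0, with a median of 0.73. Of the 9, 4 had an unadjusted p under 0.05 in limma (Krt14, Krt6a, Krt15 and Sprr1a), against 3.69% of all probe sets with the higher mean in Cox-1 KO. None of them was past the adjusted threshold. The summed signal of the 9 genes was 5334 to 10351 in wild-type and 7940 to 14268 in Cox-1 KO. It was highest on Cox-1 KO replicates 4 and 1 (14268 and 12918), the arrays with the highest Cldn1, and lowest on wild-type replicates 1 and 2 (5334 and 6328), those with the lowest. Cox-1 KO replicate 3 did not follow, with Cldn1 (1686) above every wild-type sample and a sum (7940) below wild-type replicates 3 and 4 (10351 and 8193). Much of the sum came from Perp, with 4120 on wild-type replicate 1 and 7219 on Cox-1 KO replicate 4. Perp read 4987 on Cox-1 KO replicate 3 and 5853 on wild-type replicate 4, and without it the order of their sums turns. No tested marker of the list was at 0. Krt15, a keratin of basal cells, had its lowest signals, 10 and 7, on wild-type replicates 1 and 2. The part of this tissue in the Cldn1 values was not tested.

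Cldn3 and Cldn4, which seal many simple epithelia and are the receptors of Clostridium perfringens enterotoxin, had intervals of the difference that held 0. The brightest Cldn3 probe set (1460569_x_at) had signals of 6428, 8818, 8313 and 8862 in wild-type and of 11780, 8349, 8391 and 7706 in Cox-1 KO. The groups overlapped apart from the lowest value, wild-type replicate 1, and the highest, Cox-1 KO replicate 1. The mean was 8105 ± 1146 against 9057 ± 1843 (SD, n = 4), with a log2 fold change of 0.15 (SE 0.136, 95% interval -0.15 to 0.45, limma adjusted p = 0.766), and the 3 other Cldn3 probe sets lay between 0.08 and 0.15. Cldn4 (1418283_at) had signals of 2889, 3996, 3416 and 3946 in wild-type and of 5170, 3996, 4730 and 3168 in Cox-1 KO. Cox-1 KO replicates 1 and 3 were above the other arrays, and Cox-1 KO replicate 4 was below all wild-type samples but replicate 1. The log2 fold change of Cldn4 was 0.25 (SE 0.15, 95% interval -0.08 to 0.58, limma adjusted p = 0.648).

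Cldn7, found along the sides of epithelial cells as well as at the junction, ran from 7831 to 10024 in wild-type and from 8617 to 10637 in Cox-1 KO (1448393_at). Its log2 fold change was 0.06 (SE 0.0845, 95% interval -0.12 to 0.25, limma adjusted p = 0.854). Cldn8, a claudin of the distal nephron and colon, had signals (1449091_at) of 924, 927, 1163 and 1077 in wild-type and of 827, 996, 817 and 916 in Cox-1 KO. Cox-1 KO replicates 1, 3 and 4 were below every wild-type sample, and Cox-1 KO replicate 2 was within their range. Cldn8 had the most negative log2 fold change of the 10, -0.20 (SE 0.109, 95% interval -0.44 to 0.04, limma adjusted p = 0.616), with means of 1023 ± 118 and 889 ± 84.1 (SD, n = 4).

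Cldn5, the main claudin of endothelium, ran from 1694 to 2202 in wild-type and from 1772 to 2213 in Cox-1 KO (1417839_at). Its log2 fold change was 0.00 (SE 0.101, 95% interval -0.22 to 0.22, limma adjusted p = 0.996). The other 10 endothelial markers had a summed signal of 18297 to 20368 in wild-type and 18035 to 19739 in Cox-1 KO, and the ranges overlapped as those of Cldn5 did. Among these markers Pecam1, an adhesion molecule between endothelial cells, had signals (1421287_a_at) of 3667, 3550, 3584 and 3306 in wild-type and of 2500, 3227, 2878 and 2973 in Cox-1 KO. Every Cox-1 KO sample was below every wild-type sample for Pecam1, with a log2 fold change of -0.29 (SE 0.0819, limma unadjusted p = 0.00462, adjusted p = 0.423). It was the only 1 of the 11 endothelial markers, Cldn5 included, with the genotypes apart, where 4.41% of all probe sets were. Of the 11, 4 had a log2 fold change above 0, Cdh5 (0.22) among them, and 7 below, with a median of -0.02. Cldn11, the claudin of myelin and of Sertoli cells, ran from 726 to 929 in wild-type and from 736 to 990 in Cox-1 KO (1416003_at), with a log2 fold change of 0.01 (SE 0.129, 95% interval -0.28 to 0.29, limma adjusted p = 0.994). Over the 7 members other than Cldn1, Cldn2 and Cldn6, the bounds of the 95% intervals lay between -0.44 and 0.58.

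**Figure D2:**
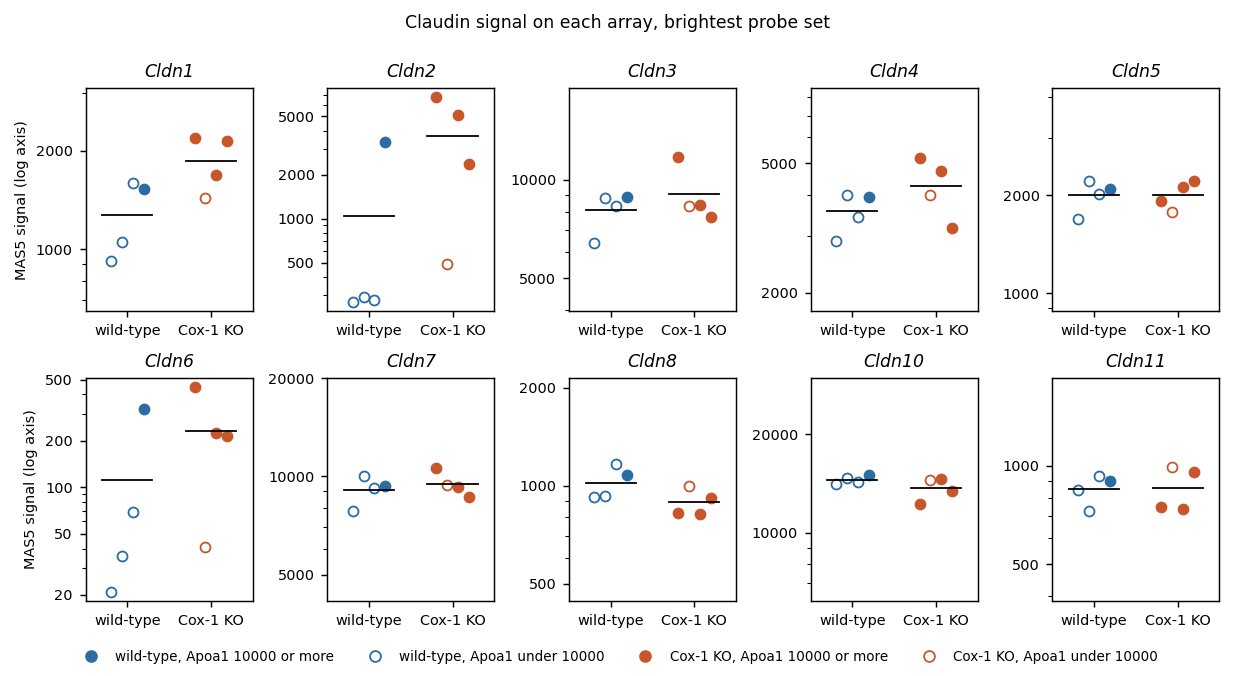
MAS5 signal (y axis, log scale, with its own range for each gene) of the brightest probe set of each claudin in the 4 wild-type (blue) and 4 Cox-1 KO (orange) samples, 1 point an array in replicate order, filled for Apoa1-high arrays, with lines at the group means of the signal. For Cldn2 and Cldn6 the filled points lie above all open points of either genotype (2373 to 6796 against 268 to 489 for Cldn2), and in the other panels filled and open points mix.

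Set by Apoa1 class instead of genotype, 4 of the 15 probe sets had all Apoa1-high arrays above all others, and 0 had them below. Among all probe sets 4.11% were higher and 4.36% lower in this way. With the brightest probe set of each gene the count was 2 of 10, Cldn2 and Cldn6, against 5.14% of all genes with the Apoa1-high arrays above. Cldn6 reached the filter only through the Apoa1-high arrays, so that its place among them was fixed. Without Cldn6 the counts were 3 of 14 probe sets and 1 of 9 genes. Those 3 still hold the Cldn2 probe set 1417232_at. With 83 on wild-type replicate 1, it too needed an Apoa1-high array to reach the filter. Cldn2 ran from 2373 to 6796 on the Apoa1-high arrays and from 268 to 489 on the others (1417231_at), so the lowest value of the one was 4.85 times the highest of the other. For its other probe set the ranges were 701 to 1377 and 83 to 158, a gap of 4.44 times. Cldn6 ran from 215 to 447 and from 21 to 69, a gap of 3.12 times. The probe set 1450014_at of Cldn1 was the last of the 4, with 874 to 1181 against 612 to 828, a gap of 1.06 times, while the brighter Cldn1 probe set overlapped between the classes. No test was made between the classes, since they were cut from a measured value.

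**Figure D3:**
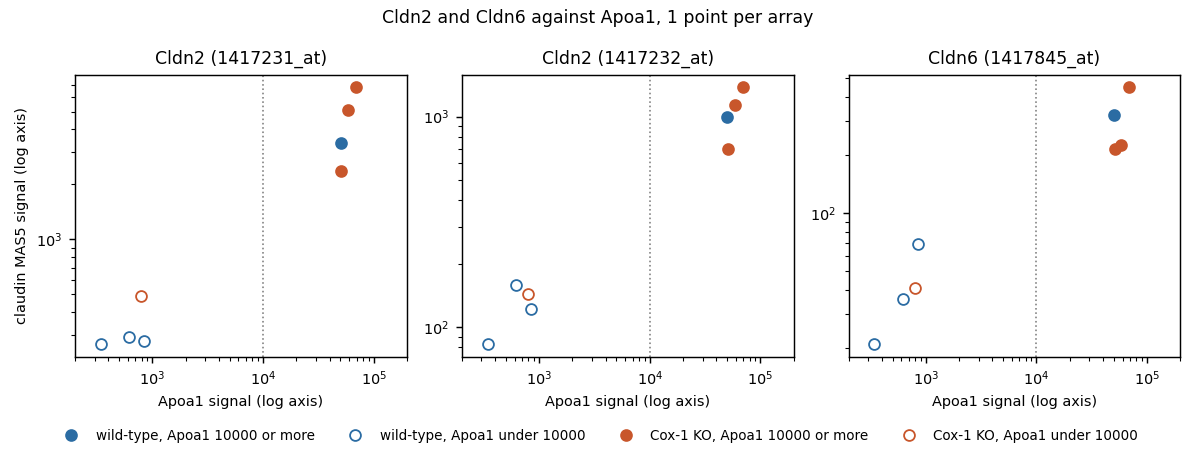
Signal of the Cldn2 and Cldn6 probe sets (y axis, log scale) against the Apoa1 signal (x axis, log scale), 1 point an array, blue for wild-type and orange for Cox-1 KO, with a dotted line at 10000. The 4 arrays right of the line, 1 wild-type and 3 Cox-1 KO, have the 4 highest signals in each panel, and the Cox-1 KO array left of it lies near the 3 wild-type arrays.

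With the Apoa1 class as a block in limma, the difference between genotypes became smaller for both genes. The log2 fold change of Cldn2 was 0.59 with the block (SE 0.29, 95% interval -0.04 to 1.23, adjusted p = 0.877) in place of 2.28, and that of its other probe set was 0.17 in place of 1.65. For Cldn6 it was -0.04 (SE 0.474) in place of 1.43. Among the 4 arrays with low Apoa1 the only Cox-1 KO sample had 489 for Cldn2 and the 3 wild-type samples 268 to 294. That is a log2 difference of 0.81 (SE 0.258), which takes the lone Cox-1 KO sample to vary as the wild-type samples do. The other Cldn2 probe set did not separate them, with 143 in Cox-1 KO and 83 to 158 in wild-type. Of these 4 arrays that Cox-1 KO sample also had the highest sum of the 10 yolk sac and fetal liver genes described below, 5879. Its Apoa1 signal (796) was not the highest. The block holds the class alone, and differences inside a class were not taken out. Within the Apoa1-high arrays, where the wild-type sample is the lone one, the difference was 0.38 for Cldn2 (SE 0.472) and -0.21 for Cldn6 (SE 0.434). The brightest probe set of Cldn1 kept its sign with a smaller value in each of these fits, 0.35 with the block, 0.32 without the Apoa1-high arrays and 0.38 within them (1437932_a_at). Its other tested probe set (1450014_at) had 0.05, -0.08 and 0.17 in these fits in place of 0.26, so that its sign turned without the Apoa1-high arrays. For the other 7 members the log2 fold changes ran from -0.17 to 0.17 with the block, and 0 of the 15 probe sets had an unadjusted p under 0.05 there, against 5.83% of all probe sets.

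Genes of yolk sac and fetal liver moved with Cldn2 and Cldn6. Of the 14 genes on that list 12 were tested, by the brightest probe set, and Apoa1, which defines the class, is 1 of them. Of the other 11, 10, all but Rbp4, were higher on every Apoa1-high array than on any other, against 5.14% of all genes. Of the 10, 3 (Apom, Cubn and Lrp2) reached the filter only through those arrays. The summed signal of the 10 genes ran from 193657 to 295629 on the Apoa1-high arrays and from 3544 to 5879 on the others. Between the genotypes it was 3544 to 193657 in wild-type and 5879 to 295629 in Cox-1 KO. Over the 12 genes, Apoa1 included, the median log2 fold change was 3.35. Of the 12, 8, with Apom and Cubn among them, had an unadjusted p under 0.05 in limma and 0 an adjusted one. All 8 were higher in Cox-1 KO, against 3.69% of all probe sets that were higher at that p. With the Apoa1 class as a block the median of the 12 was 0.49. There 7 had an unadjusted p under 0.05 in limma, against 5.83% of all probe sets in either direction. None of the 12 genes was at 0 on the arrays with low Apoa1. The alpha-fetoprotein gene Afp, the brightest of the 10 on the arrays with low Apoa1, had signals of 1357 to 3292 there and of 66979 to 75030 on the Apoa1-high arrays. The methods describe the removal of fetal tissue, as given above, and the part of such tissue in the Cldn2 and Cldn6 values was not tested.

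The genes most like Cldn2 over the 8 arrays, by the root mean square difference of log2 signals centred on each gene's mean, among 22641 probe sets with 1 symbol, were Pla2g12b (0.28), Slc7a9 (0.35) and Lrp2 (0.37), where Cldn2 itself had an SD of 2.03. Pla2g12b belongs to the secreted phospholipases, Slc7a9 is a subunit of the transporter that takes up cystine in kidney and gut, and Lrp2 is megalin, an endocytic receptor of absorptive epithelia that is also on the yolk sac and fetal liver list. Pla2g12b had signals of 51, 82, 51 and 723 in wild-type and of 1397, 83, 1001 and 737 in Cox-1 KO. Those nearest to Cldn6 (SD 1.66) were Rhox5 (0.40), a homeobox gene of the X chromosome, Fmr1nb (0.40) and Kng1 (0.41), the precursor of bradykinin. Rhox5 had signals of 252, 557, 611 and 2379 in wild-type and of 5918, 604, 4095 and 2669 in Cox-1 KO. All 6 genes shared the step between Apoa1 classes, which follows from their choice by likeness to Cldn2 or Cldn6 and is no separate result. Pla2g12b read under 100 on every array with low Apoa1, and Slc7a9, Lrp2 (1427133_s_at) and Fmr1nb did so on some of them. These genes were ranked only because of the Apoa1-high arrays. Between themselves Cldn2 and Cldn6 differed by 0.68 on this measure.

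**Figure D4:**
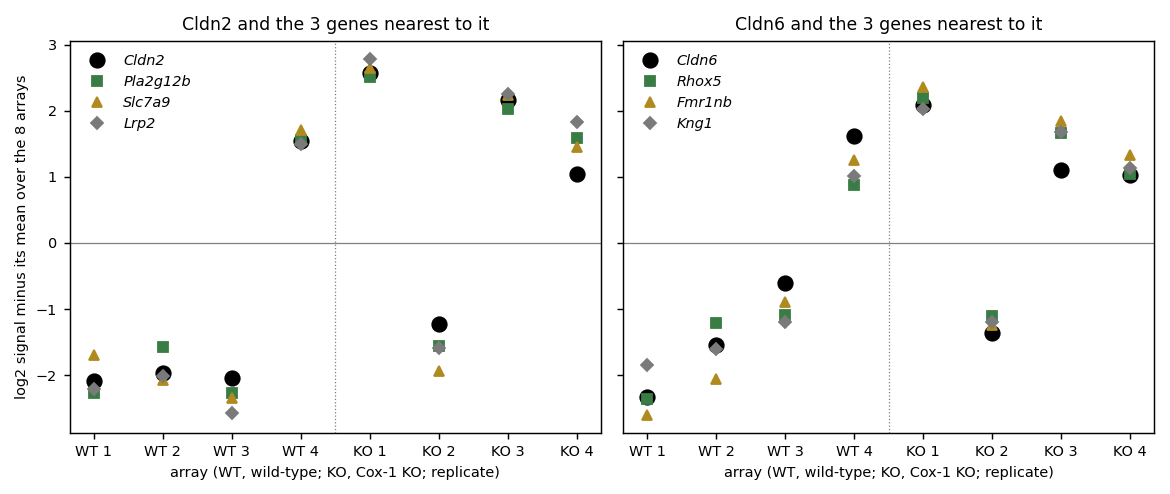
Log2 signal minus its mean over the 8 arrays (y axis) on each array (x axis, WT for wild-type and KO for Cox-1 KO, with the replicate number) for Cldn2, left, and Cldn6, right, each with the 3 genes nearest to it. In both panels wild-type replicate 4 and Cox-1 KO replicates 1, 3 and 4 lie above 0 and the other 4 arrays below it.

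The other members varied little from array to array, and some of that variation was shared. The highest signal was 1.22 to 1.83 times the lowest for the 7 members other than Cldn1 (2.38 times), Cldn2 (25.4 times) and Cldn6 (21.3 times). Cox-1 KO replicate 1 had the highest signal of 6 of the 10 members (Cldn1, Cldn2, Cldn3, Cldn4, Cldn6 and Cldn7), and wild-type replicate 1 the lowest of 7 (Cldn1 to Cldn7). The 15 other epithelial markers had their lowest sum, 183135, on wild-type replicate 1 and their highest, 245524, on Cox-1 KO replicate 1, against 218641 to 239680 on the remaining 6 arrays. Of the 15, 7 had their lowest signal on wild-type replicate 1 and 7 their highest on Cox-1 KO replicate 1. Foxa2 is counted among the lowest though its 76 there was tied with Cox-1 KO replicate 2. Some markers went the other way. Spint2 had its highest signal (18983) on wild-type replicate 1, and Esrp1 (2201) and Prom1 (35725) had their lowest on Cox-1 KO replicate 1. Lactotransferrin (Ltf), a secreted glandular protein, read 10620 on wild-type replicate 1 and 27077 to 38370 elsewhere, and without it the sums of the other 14 were 172515 and 217880 on those arrays and 191420 to 206762 on the remaining 6. The part of epithelial content in the values of Cldn3, Cldn4 and Cldn7 was not tested. Without wild-type replicate 1 the log2 fold change of Cldn7 was -0.01 and that of Cldn5 -0.08.

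Other claudins, and other genes of tight junctions and cell polarity, called partners here, gave the setting for these values. Of 16 further claudin genes and relatives 5 had a probe set (Cldn12, Cldn15, Cldn22, Cldn23 and Cldnd1), with log2 fold changes from -0.13 to 0.35, and 0 of the 5 passed an unadjusted p of 0.05 in limma. Of 33 partner genes 27 were tested, each by its brightest probe set, with a median log2 fold change of 0.02 and a range of -0.29 to 0.37. Occludin (Ocln), a strand protein beside the claudins, had 0.10, and Tjp1, the scaffold that links claudins to actin, had 0.05. None passed the adjusted threshold, and 1 of the 27, the junctional adhesion molecule Jam3, had an unadjusted p under 0.05 (means of 1741 ± 182 for wild-type and 1426 ± 198 for Cox-1 KO, SD, n = 4, log2 fold change -0.29, limma adjusted p = 0.538). Among the 55 tested probe sets of all partners 3 were under that p, with 2 that are not the brightest of their gene. These were 1448695_at of Prkci, an atypical protein kinase C (-0.29, limma adjusted p = 0.532), and 1418983_at of the scaffold Patj (0.23, limma adjusted p = 0.538), while the brightest probe sets of these genes had -0.07 and 0.07. Among the brightest probe sets the next smallest p were those of the scaffold Magi3 (log2 fold change 0.22, limma adjusted p = 0.58), the polarity gene Pard6g (0.16, 0.602) and cingulin, Cgn (0.29, 0.649). Between the Apoa1 classes 4.11% of all probe sets lay apart with higher and 4.36% with lower signals on the Apoa1-high arrays. By the brightest probe set of each gene, as the partners are counted, 5.14% of all genes lay apart with higher signals. Of the 27 partners 5 lay apart, with Cgn, Magi3 and Prkcz higher and Jam3 and Prkci lower on the Apoa1-high arrays. Cgn read 1375 to 1729 on those and 952 to 1019 on the others, a smaller step than that of Cldn2 or Cldn6.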

How the data were processed

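Uteri of 4 wild-type and of 4 Cox-1 KO mice gave RNA that was hybridized to Affymetrix 430 2.0 arrays. The authors computed the deposited signal intensity with MAS5 and scaled each array to 1000. The table is linear, in whole numbers, has 28000 probe sets, and holds no detection calls. How those were chosen is not given in the sources used here. Array controls (60) were left out. Signals under 1 (1 value) were set to 1, and log2 signals of the 26444 probe sets that reached 100 on 4 or more arrays were compared with limma 3.58.1 (R 4.3.3; variance trend, Benjamini-Hochberg over all, threshold 0.05). MAS5 adds no model across arrays, so low signals are noisy, and no further normalization was made. Probe sets whose names end in _x_at or _s_at can share probes with other transcripts. The methods' t-test (unequal variances) called a p up to 0.05 with means that differed by 1.5 times.

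The members and lists were chosen with earlier results of these data known. All probe sets of a member are given, and partners and markers by up to 4 smallest p. Genes were ranked by likeness for members with an SD of log2 signal of 0.5 or more. Lists of partners and markers were counted by the brightest probe set of each gene. Alternatives were an added constant of 32, low signals raised to 100, a replicate block, the filter dropped or moved to 200, arrays centred on their medians or quantile-normalized, a fit without the trend, the Apoa1 class as a block or split, and each array left out. The limma step was tested on simulated data. Arrays correlated at 0.944 to 0.982, and 0 pairs were identical.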

Additional observations from a re-analysis of the deposited data

Results flagged for a closer look

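Values were looked at for an array far from the other 3 of its genotype, by Dixon's test, in the 30 groups of 4 arrays of the 15 tested probe sets. Chance flags about 1 in 20 groups, and 4 groups were marked. Cldn2 on wild-type replicate 4 had a signal of 3354 (1417231_at), while wild-type replicates 1 to 3 read 268 to 294. The other Cldn2 probe set (1417232_at) had 995 on the same array, against 83 to 158. Cldn6 had 322 there, against 21 to 69. This is the wild-type array with a high Apoa1 signal (50275), and the marks for Cldn2 and Cldn6 come from that 1 array and are not separate events. Cldn3 on Cox-1 KO replicate 1 had 11780 (1460569_x_at), against 7706 to 8391 on the other Cox-1 KO arrays. What sets these arrays apart was not tested.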

How the results depend on the processing

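No claudin probe set passed the adjusted threshold in any of the settings tried, with each array left out included (0 to 0), or by the methods' t-test after adjustment (0). The 2 with an unadjusted p under 0.05 became 1 without the variance trend, 0 with the Apoa1 class as a block, 1 without the Apoa1-high arrays, 0 within them and 0 at the methods' thresholds. Leaving out an array gave 1 to 6, with 6 without Cox-1 KO replicate 2, 4 without wild-type replicate 4, 1 without any of wild-type replicates 1 to 3 or without Cox-1 KO replicate 1 or 3, and 2 without Cox-1 KO replicate 4. Over all 26444 probe sets that count was 2330 with all arrays, 2657 when wild-type replicate 4 was dropped and 3052 when Cox-1 KO replicate 2 was. The 1 partner became 2 with median centring, another one with the Apoa1 block (Mpp5, lower, in place of Jam3), 0 without the Apoa1-high arrays, 0 at the methods' thresholds, and 0 to 3 with an array left out (3 without wild-type replicate 4 or Cox-1 KO replicate 2, 0 without wild-type replicate 1 or Cox-1 KO replicate 1 or 3). The 0 of the other claudins became 1 with the Apoa1 block (Cldnd1, lower) and 0 to 1 with an array left out (1 without Cox-1 KO replicate 1).

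For the brightest probe sets of the members 195 alternative values were looked at, other probe sets of the gene included. Of these, 181 kept the sign and 14, in 5 members, did not. Less bright probe sets of Cldn1 and Cldn3 also turned in refits by Apoa1 class. Cldn1 (1450014_at) was -0.08 without the Apoa1-high arrays, and Cldn3 was -0.06 (1434651_a_at) and -0.02 (1451701_x_at) within them. Cldn5 (0.00 with all arrays, -0.08 to 0.06 with an array left out) was -0.08 with the Apoa1 block, -0.15 without the Apoa1-high arrays, -0.01 within them, and -0.08, -0.02 and -0.05 without wild-type replicate 1, Cox-1 KO replicate 3 and Cox-1 KO replicate 4. Cldn6 (1.43) was -0.04 with the block and -0.21 within the Apoa1-high arrays, 0.69 with signals under 100 raised to 100, and 0.90 (without wild-type replicate 1) to 2.21 (without wild-type replicate 4) with an array left out, with 0.97 and 2.12 without Cox-1 KO replicates 1 and 2. Cldn7 ran from -0.01 (without wild-type replicate 1) to 0.11, and Cldn10 was 0.01 without the Apoa1-high arrays. Cldn11 (0.01 with all arrays, -0.07 to 0.07 with an array left out) was -0.16 within them, and -0.07, -0.07 and -0.05 without wild-type replicate 2, Cox-1 KO replicate 2 and Cox-1 KO replicate 4. The causes were not tested. With each array left out Cldn2 ran from 1.80 (without Cox-1 KO replicate 1) to 3.17 (without wild-type replicate 4), with a lowest limma adjusted p of 0.167.

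Same-numbered samples did not deviate together (r of -0.25, 0.22, -0.18 and 0.17 over probe sets, with 1 of 4 nearest its own number), so the values showed no pairing by number. The 4 values cannot exclude shared handling. The study's methods say that samples were processed side by side in balanced groups, which the labels do not name. With the replicate number as a block, 0 claudin probe sets passed the adjusted threshold and 3 had an unadjusted p under 0.05. Over all probe sets 3 passed the adjusted threshold, and 2 to 25 over the other settings (25 without wild-type replicate 1). MAS5 signals under 100, as for Cldn6 on 4 arrays, are near the low end of the scale, and their ratios are uncertain.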
